A study of Homo sapiens with 2 samples.

Results

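The DNAJ genes encode J proteins, the co-chaperones that bring unfolded protein to HSP70 chaperones and switch on their ATP hydrolysis through a conserved J domain. Class A members carry a zinc-binding region beside the J domain, members of classes A and B a glycine- and phenylalanine-rich stretch, and class C members only the J domain in common. Different members serve the HSP70 of the cytosol, the nucleus, the endoplasmic reticulum (ER) or the mitochondrion, and some in the cytosol and ER are known to be induced by heat shock factor or by the unfolded protein response. Members were all symbols that begin with DNAJA, DNAJB or DNAJC and a number, apart from pseudogenes, antisense and divergent transcripts and a readthrough gene. This gave 44 genes of the 43424 symbols in the count files, 4 in class A, 12 in class B and 28 in class C, while 10 symbols with the same start were left out. DNAJB3 was among those left out because RefSeq lists it as a pseudogene.

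The RNA came from Hep3B, an established line from a human liver cancer, hepatocellular carcinoma, with the genotype labelled wild type. One library was from cells given the solvent dimethyl sulfoxide (DMSO control), and 1 from cells given an extract of the plant Glehnia littoralis (GLE). Neither the dose nor the exposure time of the sequenced cultures is given in the sources used here. Libraries were made with a QuantSeq kit, which reads the 3′ ends of polyadenylated RNA, and the files hold 5618328 counts for the control and 3636351 for GLE. The 8 hepatocyte markers examined, ALB and AFP among them, ranged from 91.6 to 4325 CPM (counts scaled by library size) in the control and from 41.0 to 2708 in GLE, and their summed level was 8039 and 5043 CPM. The 8 markers of other cell types summed to 29.1 and 41.6 CPM, most of it CD68. The endothelial gene VWF had 0 counts in both libraries and the leukocyte gene PTPRC 1 and 3, whereas PECAM1 had 36 and 1 and COL1A1 4 and 29. The part of these shifts in the results was not tested.

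With 1 library per condition there is no replicate check, so no test between conditions was made, and a treatment effect cannot be told apart from differences between cultures or preparations. Each value below is given as raw counts in control and GLE, and the ratio of GLE over control is that of counts scaled by library size, with a 95% interval that covers counting error only. In bulk RNA, a change in the share of some cells cannot be told apart from a change per cell. Of the 44 members, 30 had at least 30 counts over both libraries and are called measured. Among these 30, 6 were at least 2-fold higher in GLE (20%, against 9.54% of all 11068 measured genes) and 1 was at least 2-fold lower (3.33%, against 10.5%). The 6 were DNAJB1, DNAJB2, DNAJB4, DNAJB9, DNAJC2 and DNAJC24, and the 1 was DNAJC30. With libraries scaled by total counts instead, 4 members were at least 2-fold higher (against 8.26% of all measured genes) and 2 lower (against 12.2%). DNAJB2 and DNAJC2 then lay just under 2-fold and DNAJB12 just past it. The counting interval lay above 1 for 13 members (43.3%, against 27.7% of all measured genes) and below 1 for 6 (20%, against 30.1%), and it narrows with depth, which differs between genes. The median log2 ratio was 0.10 for the members and -0.04 for all measured genes.

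**Figure D1:**
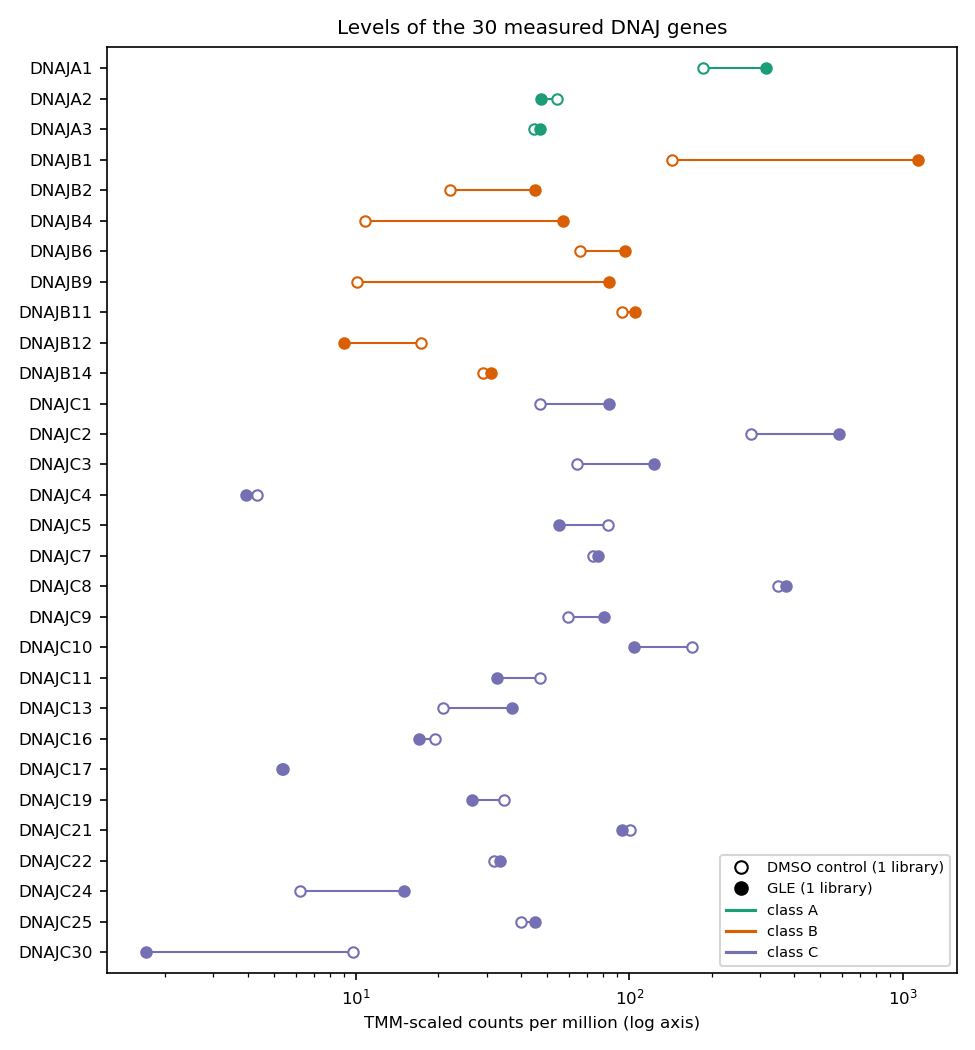
Levels of the 30 measured DNAJ genes in TMM-scaled CPM (log axis), open points for the control library and filled points for the GLE library, coloured by class. DNAJB1 moved from 144 to 1143 CPM, and DNAJC30 from 9.69 to 1.70.

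DNAJB1, the classical heat-inducible J protein of the cytosol, had 831 counts in the control and 4042 in GLE, a ratio of 7.95 (7.37 to 8.57). Its gene lies on chromosome 19 (14514769 to 14560391, minus strand, GRCh38). By raw counts it was the gene at rank 1016 of the control library and at rank 80 of the GLE library. DNAJB4, a close cytosolic relative of DNAJB1 on chromosome 1 (77979175 to 78017964, plus strand), had 62 and 202 counts, a ratio of 5.32 (3.99 to 7.20). DNAJB1 over DNAJB4 gave a ratio of ratios of 1.49 (1.09 to 2.01), in which the scaling between libraries cancels. Like the other pairs below, this pair was chosen after its values were seen, and the interval covers counting error only. DNAJB6, which keeps aggregation-prone proteins soluble, had 380 and 341 counts and a ratio of 1.47 (1.26 to 1.70). DNAJB2, which carries ubiquitin-binding motifs and hands clients to the proteasome, had 127 and 159 counts and a ratio of 2.05 (1.61 to 2.60). All 4 measured class B genes of the cytosol therefore had intervals above 1 (against 27.7% of all measured genes), with ratios spread from 1.47 to 7.95.

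Sequences before the transcription start are shown for DNAJB1, DNAJB4 and DNAJB6 because these class B genes of the cytosol were higher in GLE and hold a heat shock element, the site of heat shock factors. The letters searched were GAANNTTC and TTCNNGAA, each its own reverse complement, so 1 strand covers both, and matches stand in capitals. The stretches were cut where GENCODE 29 places an exon, and come from RefSeq promoter entries on GRCh38.p14. The DNAJB1 stretch is chr19:14518421-14518647 on the minus strand, the DNAJB4 stretch chr1:78004689-78004853 on the plus strand and the DNAJB6 stretch chr7:157336774-157336965 on the plus strand. Those of DNAJB1 and DNAJB4 lie at internal starts of the annotated genes. Another stretch of each gene, chr19:14517938-14518138 and chr1:77979111-77979174, held 0 matches and is not shown.
DNAJB1: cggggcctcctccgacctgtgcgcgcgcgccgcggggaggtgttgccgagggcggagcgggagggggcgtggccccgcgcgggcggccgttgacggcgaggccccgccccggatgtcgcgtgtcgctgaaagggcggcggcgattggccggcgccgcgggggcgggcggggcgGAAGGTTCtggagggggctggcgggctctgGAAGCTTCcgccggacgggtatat
DNAJB4: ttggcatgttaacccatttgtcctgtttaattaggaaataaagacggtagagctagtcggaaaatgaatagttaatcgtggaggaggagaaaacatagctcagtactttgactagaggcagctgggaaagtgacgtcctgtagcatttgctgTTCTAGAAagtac
DNAJB6: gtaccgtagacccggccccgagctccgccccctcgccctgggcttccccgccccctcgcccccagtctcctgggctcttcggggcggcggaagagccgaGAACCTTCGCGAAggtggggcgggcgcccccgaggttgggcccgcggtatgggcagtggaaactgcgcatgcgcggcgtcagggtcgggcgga

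In DNAJB1 the matches begin 77 and 47 bases before the start, and in DNAJB4 the match begins 98 bases before it. In DNAJB6 a match at 131 bases and another at 126 overlap and together form the 3-unit element, which 0.441% of all 35116 RefSeq promoter windows hold. Over all members, 40 had at least 1 RefSeq entry. The 2-unit element occurred in 7 of their 52 windows of 250 bases (13.5%), against 11.6% of all windows, so its frequency in the family as a whole was close to that background. DNAJA1, DNAJA4, DNAJB7 and DNAJC15 held it too, and DNAJB2, DNAJC2 and DNAJB9, each over 2-fold higher, did not. The ER stress element was in none of the members' windows and in 0.0740% of all windows. TGACGTGG, the unfolded protein response element, searched on both strands, was in the window of DNAJC10 alone among the members and in 0.612% of all windows. Its CCACG core, part of both ER elements, was in 48.1% of the members' windows and 33.5% of all windows. TGATGNAA, the ATF4-C/EBP element, was found for DNAJA4 alone (3.14% of all windows) and TGACGTCA, the CRE core, for DNAJC27 alone (1.65%). A match describes letters in a window, and binding was not measured.

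Class A differed from one gene to the next. DNAJA1, a farnesylated cytosolic co-chaperone on chromosome 9 (33025273 to 33039907), had 1077 and 1118 counts, a ratio of 1.70 (1.56 to 1.85). DNAJA2, its near relative in the same compartment, had 314 and 168 counts, and its ratio of 0.874 (0.721 to 1.06) held no difference detectable at this depth. The ratio of DNAJA1 over that of DNAJA2 was 1.94 (1.57 to 2.40). DNAJA3, the class A protein of the mitochondrial matrix, had 259 and 166 counts, with a ratio of 1.05 (0.857 to 1.28). DNAJA4, a cytosolic member, was listed at 0 counts in both libraries, where a floor of 3 counts is 0.519 CPM in the control and 0.848 CPM in GLE. The 3′ end of DNAJA4 lies within 500 bases of the oppositely directed SKIC8, which had 183 and 121 counts, and how reads shared by such pairs were handled was not stated.

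The class C members of the cytosol serve narrow tasks. DNAJC2, the J protein that binds the ribosome and acts with the HSP70 protein HSPA14 on nascent chains, is on chromosome 7 (103312289 to 103344767) and had 1608 and 2067 counts. Its ratio was 2.10 (1.97 to 2.24), and HSPA14, with 65 and 71 counts, had a ratio of 1.78 (1.26 to 2.54). The oppositely directed PMPCB ends beside DNAJC2 and had 281 and 200 counts, a ratio of 1.16 (0.965 to 1.40). DNAJC24, which takes part in making the diphthamide residue of elongation factor eEF2, had 36 and 53 counts and a ratio of 2.41 (1.55 to 3.78). DNAJC21, a factor of large ribosomal subunit maturation, had 583 and 332 counts, at 0.931 (0.811 to 1.07). The ratio of DNAJC2 over that of DNAJC21 was 2.26 (1.94 to 2.63). DNAJC7, which binds both HSP70 and HSP90, had 426 and 272 counts, at 1.04 (0.893 to 1.22).

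Of the 3 nuclear members, 2 had intervals above 1 (66.7%, against 27.7% of all measured genes), with ratios under 1.5. DNAJC8, a spliceosome-associated protein, had 2018 and 1327 counts, the largest count of any member in the control, and a ratio of 1.07 (1.002 to 1.15). The low end of its interval lay barely above 1, and its ratio ran from 1.02 to 1.10 under the other settings. DNAJC9, a co-chaperone of histones H3 and H4, had 343 and 286 counts and a ratio of 1.36 (1.16 to 1.60). DNAJC17, a splicing-related member, had 31 and 19 counts, and its interval of 0.535 to 1.83 shows how little so few counts can resolve.

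**Figure D2:**
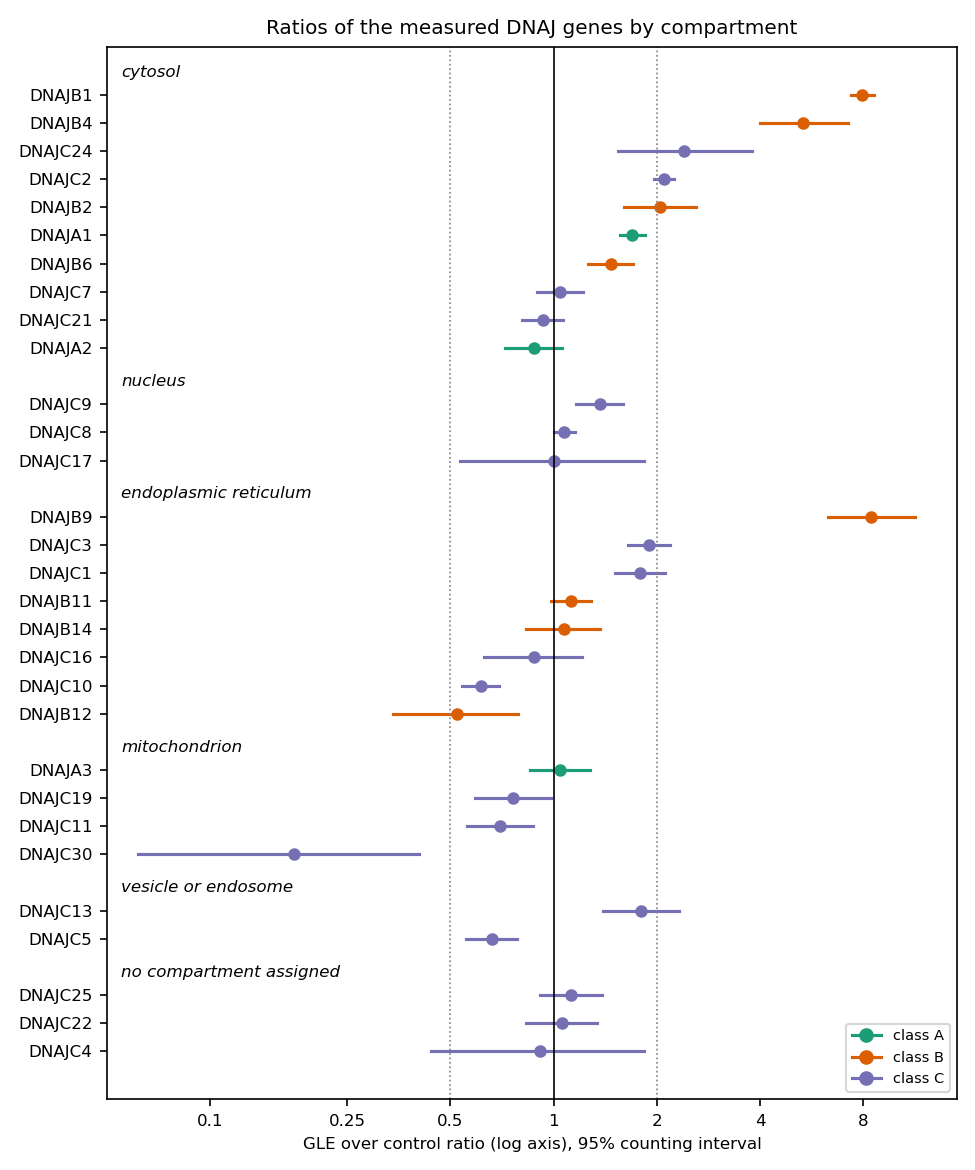
GLE over control ratio (log axis) of each measured DNAJ gene with its 95% counting interval, grouped by compartment and coloured by class, with a solid line at 1 and dotted lines at 2-fold. The intervals of the 7 cytosolic genes at the top, from DNAJB1 at 7.95 to DNAJB6 at 1.47, lie right of 1. These are 70% of the 10 there, against 27.7% of all measured genes. Those of 3 of the 4 mitochondrial genes lie left of it (75%, against 30.1%).

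In the ER, members lay on both sides of their control level. DNAJB9 (ERdj4), a lumenal J protein that restrains the stress sensor IRE1 and helps remove misfolded proteins, had 58 and 298 counts. Its ratio of 8.40 (6.32 to 11.3) was the highest among the measured members, with an interval that overlaps that of DNAJB1. It lies on chromosome 7 (108569874 to 108574850). DNAJB11 (ERdj3), which binds nascent proteins with the ER chaperone HSPA5, had 542 and 372 counts, at 1.12 (0.980 to 1.28). The ratio of DNAJB9 over that of DNAJB11 was 7.47 (5.44 to 10.4). There were 0.107 DNAJB9 reads for each DNAJB11 read in the control and 0.801 in GLE.

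DNAJC3 (p58IPK), an ER co-chaperone known as an inhibitor of the kinase PERK, is on chromosome 13 (95677139 to 95794988) and had 373 and 434 counts, a ratio of 1.90 (1.65 to 2.19). DNAJC1 (ERdj1), a membrane J protein that contacts ribosomes, had 273 and 299 counts and a ratio of 1.79 (1.51 to 2.12). DNAJC10 (ERdj5), a reductase that opens disulfide bonds of proteins bound for degradation, is on chromosome 2 (182716257 to 182794464) and had 983 and 369 counts. It was 1.63-fold lower (1.44 to 1.84) in GLE. DNAJC3 over DNAJC10 gave a ratio of ratios of 3.10 (2.57 to 3.74).

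The membrane-anchored pair DNAJB12 and DNAJB14, which act in ER-associated degradation, also differed. DNAJB12 had 100 and 32 counts and was 1.91-fold lower (1.27 to 2.94), whereas DNAJB14 had 168 and 110 and a ratio of 1.07 (0.834 to 1.37). DNAJB14 over DNAJB12 gave 2.04 (1.26 to 3.37). DNAJC16, another ER membrane member, had 112 and 60 counts, at 0.875 (0.629 to 1.21). Of the 8 measured ER members, the interval lay above 1 for 3, below 1 for 2 and held 1 for 3. These shares of 37.5% and 25% are not far from the 27.7% and 30.1% of all measured genes.

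Mitochondrial members lay at or below their control level. DNAJC30, an inner membrane protein linked to complex I upkeep, is encoded on chromosome 7 (73680918 to 73683453) and had 56 counts in the control and 6 in GLE. It was 5.71-fold lower, and with so few GLE reads the interval ran from 2.47 to 16.2-fold. DNAJC11, a partner of the complex that shapes cristae, had 271 and 116 counts and was 1.43-fold lower (1.15 to 1.79). DNAJC19, part of the motor that pulls proteins through the inner membrane, had 201 and 94 counts and was 1.31-fold lower (1.02 to 1.69). DNAJC15, its relative, was listed at 0 in both libraries. The median log2 ratio of the 4 measured mitochondrial members was -0.45, against 0.90 for the 10 of the cytosol and 0.13 for the 8 of the ER, and these medians were not tested against each other.

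Vesicle and endosome members went apart. DNAJC13, which works with retromer on endosomes, had 120 and 132 counts and a ratio of 1.80 (1.39 to 2.32). DNAJC5, the palmitoylated cysteine string protein of secretory vesicles, had 482 and 195 counts and was 1.51-fold lower (1.28 to 1.80). DNAJC6, auxilin, which uncoats clathrin vesicles, had only 4 and 14 counts and was not measured by the minimum used. Among members given no compartment, DNAJC25 had 232 and 160 counts, DNAJC22 184 and 119, and DNAJC4 25 and 14. Their ratios of 1.13, 1.06 and 0.915 all had intervals that held 1.

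The other 13 unmeasured members had few reads or none. Counts were 0 in both libraries for DNAJA4, DNAJB7, DNAJB8, DNAJB13, DNAJC5B, DNAJC5G and DNAJC15, of which DNAJB8 and DNAJB13 are known from testis and sperm. DNAJC14, an ER membrane protein just under the minimum of 30, had 21 and 8, and DNAJC27 had 11 and 16. DNAJC28 had 9 control counts and 0 in GLE. DNAJC12, a co-chaperone of the aromatic amino acid hydroxylases, had 2 and 5 counts, and DNAJB5 and DNAJC18 had 2 and 4 each. No direction is drawn from counts this low.

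By class, 4 of 8 measured class B genes were at least 2-fold higher, against 2 of 19 in class C and 0 of 3 in class A. Class C held the 1 member at least 2-fold lower. The class C shares of 10.5% higher and 5.26% lower lie near and below the 9.54% and 10.5% of all measured genes, and the 50% of class B higher lies above, over 8 genes. The median log2 ratio was 0.07 in class A, 0.79 in class B and 0.06 in class C, and log2 ratios ran from -0.92 to 3.06 in class B and from -2.41 to 1.26 in class C. Scaled by total counts, the class A and class C medians became -0.01 and -0.02. Class B genes of the cytosol had a median of 1.72 over 4 genes and those of the ER 0.13 over 4, while class C genes had 0.57 over 4 in the cytosol and 0.33 over 4 in the ER. With 3 to 19 genes a group and 1 library a condition, the classes were compared by description alone.

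All members together had 12326 counts in the control and 13413 in GLE, or 2133 and 3793 CPM, a ratio of 1.78 (1.74 to 1.82). Without DNAJB1 the ratio was 1.33 (1.30 to 1.37), and without DNAJB1, DNAJB4 and DNAJB9 it was 1.27 (1.24 to 1.31). In that last sum of 1969 and 2509 CPM, DNAJC2 alone held 278 and 585 CPM. The shares of the family's own reads need no scaling between libraries. DNAJB1 held 6.74% of DNAJ reads in the control (Clopper-Pearson 95% interval 6.31 to 7.20) and 30.1% in GLE (29.4 to 30.9). Class B as a whole went from 18.4% (17.7 to 19.1) to 41.5% (40.6 to 42.3) and class C from 68.2% (67.4 to 69.0) to 47.7% (46.9 to 48.6). A share is relative to a family total that was higher in GLE, and the scaled level of the measured class C members was itself higher, at 1446 and 1797 CPM. DNAJC2 held 278 and 585 CPM of that class C sum, and the class C median log2 ratio was 0.06. Cytosolic members held 44.2% (43.3 to 45.1) and 65.3% (64.5 to 66.1), ER members 21.3% (20.6 to 22.1) and 14.8% (14.2 to 15.4), and mitochondrial members 6.38% (5.96 to 6.83) and 2.85% (2.57 to 3.14). The scaled level of the measured ER members was likewise higher in GLE, at 452 and 558 CPM, while that of the mitochondrial members was lower, at 136 and 108 CPM. In the ER sum, DNAJB9 held 10.0 and 84.3 CPM and DNAJC10 170 and 104. These are shares of reads from 3′ ends, not divided by transcript length, and are compared between libraries for 1 gene or group at a time.

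**Figure D3:**
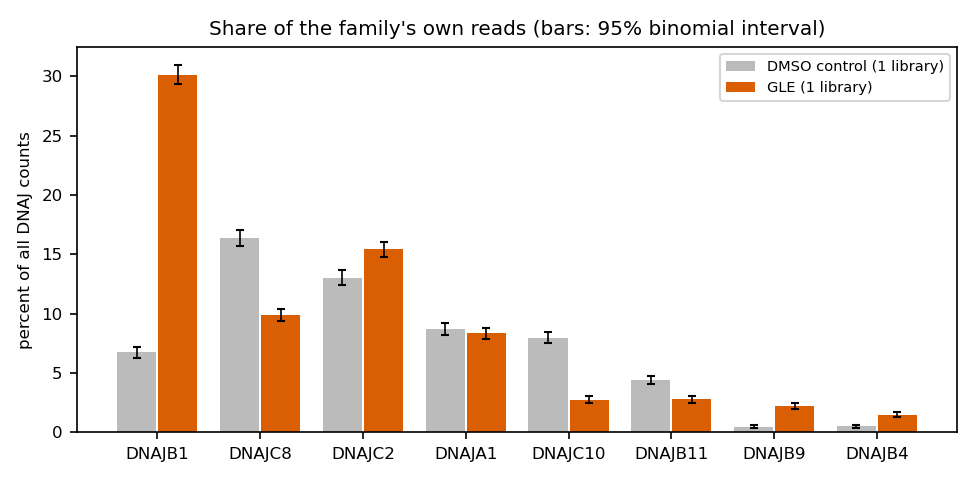
Share of all DNAJ counts held by 8 members in the control and GLE libraries, in percent, with 95% binomial intervals as bars. DNAJB1 held 6.74% and 30.1%, while DNAJC8, whose scaled ratio was 1.07, went from 16.4% to 9.89% and DNAJC10, 1.63-fold lower, from 7.98% to 2.75%.

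The HSP70 proteins that J proteins serve were examined as a list of 10 genes, 9 of them measured. For 7 of them (77.8%, against 27.7% of all measured genes) the interval was above 1, for 0 it was below (against 30.1%), and 4 were at least 2-fold higher (44.4%, against 9.54%). In the cytosol, HSPA8, the constitutive HSP70, had 572 and 645 counts and a ratio of 1.84 (1.64 to 2.07), and the ratio of DNAJB1 over it was 4.31 (3.76 to 4.95). HSPA1A, the inducible HSP70, had 308 and 931 counts and a ratio of 4.94 (4.34 to 5.64), but it is nearly identical in sequence to HSPA1B (113 and 226 counts), so the split of reads between them is uncertain. DNAJB1 over HSPA1A gave 1.61 (1.38 to 1.87), above 1 over its whole interval. HSPA6, with only 2 counts in the control and 124 in GLE, had a ratio of 101 (27.5 to 846), above that of DNAJB1. HSPA13, given no compartment here, had 148 and 215 counts, at 2.37 (1.92 to 2.95). In the ER, HSPA5 (BiP), the partner of DNAJB9, had 3012 and 2694 counts and a ratio of 1.46 (1.39 to 1.54), and DNAJB9 over HSPA5 gave 5.74 (4.30 to 7.78). In mitochondria, HSPA9, the partner of DNAJA3 and DNAJC19, had 1091 and 730 counts, at 1.09 (0.994 to 1.20).

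Nucleotide exchange factors release ADP from HSP70 and so end the cycle that J proteins begin. The list examined held such factors and the BAG family, not every member of which need act this way. Of its 14 measured genes, 4 were at least 2-fold higher (28.6%, against 9.54% of all measured genes) and 0 lower by that size (against 10.5%). Intervals of 6 were above 1 (42.9%, against 27.7% of all measured genes). Those of SIL1, BAG1 and BAG5 were below it (21.4%, against 30.1%). The cytosolic HSPH1, with 985 and 1896 counts, had a ratio of 3.15 (2.91 to 3.40), and BAG3, with 105 and 300, 4.67 (3.73 to 5.89). Of the mitochondrial pair, GRPEL2 had 34 and 137 counts and a ratio of 6.58 (4.50 to 9.89), while GRPEL1 had 743 and 528 and a ratio of 1.16 (1.04 to 1.30). GRPEL2 thus lay opposite in direction to DNAJC30, DNAJC11 and DNAJC19 of the same organelle. The ER exchange factor SIL1, with 150 and 57 counts, was 1.61-fold lower (1.18 to 2.22), and HYOU1 had 308 and 223, at 1.18 (0.991 to 1.41). J proteins that carry other symbols were SEC63 of the ER translocon at 0.985 (0.888 to 1.09), GAK of clathrin uncoating at 0.863 (0.779 to 0.956) and the iron-sulfur co-chaperone HSCB at 1.63 (0.849 to 3.15).

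**Figure D4:**
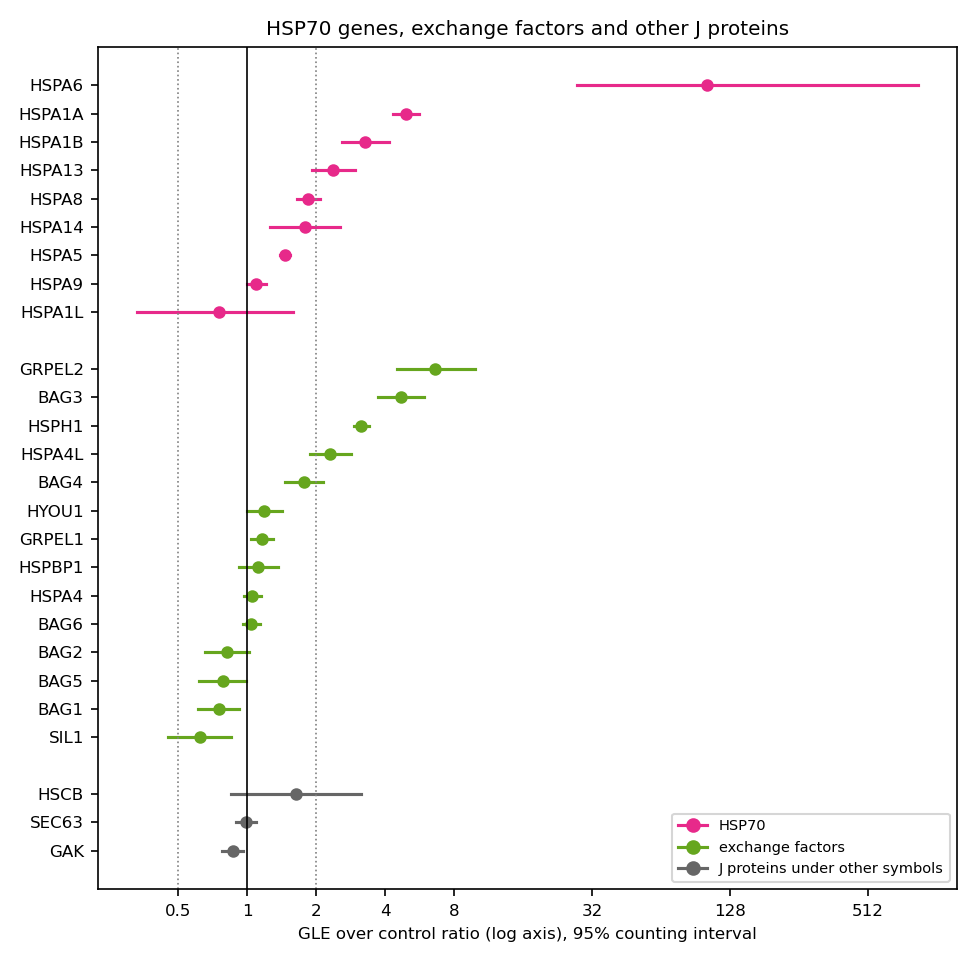
GLE over control ratio (log axis) with 95% counting interval for the measured HSP70 genes, nucleotide exchange factors and J proteins under other symbols. HSPA6 (2 and 124 counts) and GRPEL2 head their groups, and SIL1 is the lowest exchange factor at 0.621.

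Messages of 5 regulators of these genes were also counted. HSF1, the main heat shock factor, had 360 and 217 counts, at 0.985 (0.828 to 1.17), and HSF2 238 and 353, at 2.42 (2.05 to 2.87). XBP1, which drives ER chaperone genes once spliced, had 1025 and 904 counts, a ratio of 1.44 (1.32 to 1.58). ATF6 had 279 and 293, at 1.72 (1.45 to 2.03), and ATF4 2518 and 3368, at 2.19 (2.08 to 2.30). Counts per gene carry no measure of HSF1 activation or XBP1 splicing.

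Gene overlap and base composition were examined as properties that could touch the counts. Of the 30 measured members, 7 had a counted gene within 500 bases of their 3′ end. For DNAJB4, the same-strand neighbour GIPC2 had 122 and 55 counts and a ratio of 0.737 (0.526 to 1.02), on the other side of 1 from DNAJB4 but with an interval that holds 1. For DNAJC11, the oppositely directed THAP3 had 96 and 86 counts and a ratio of 1.46 (1.08 to 1.98), also opposite to the member. FAM149B1 and VEGFB lay on the same side of 1 as their member, as did PMPCB beside DNAJC2. Beside DNAJC9, FAM149B1 had 17 and 18 counts, at 1.73 (0.841 to 3.57), and beside DNAJC4, the same-strand VEGFB had 148 and 46, at 0.508 (0.357 to 0.711). GCHFR had 131 and 52 counts, at 0.649 (0.461 to 0.901), below 1 while its member DNAJC17 was at 1.00. CNP, beside DNAJC7 at 1.04, had 378 and 231, at 0.999 (0.844 to 1.18). Across the 30 measured members, the log2 ratio had a Spearman correlation of -0.27 with transcript GC content and -0.22 with transcript length. Across 10423 measured genes the correlation with GC content was -0.17. The points of these correlations share 1 pair of libraries, and they are given as description. GC content of the members' transcripts ranged from 33.1% to 64.2%, and its part in the ratios was not tested beyond the removal of the trend. With the trend removed, 6 members were again at least 2-fold higher (against 9.63% of all measured genes) and 1 lower (against 9.58%).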

How the data were processed

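Per the submitters' processing notes, reads were handled with fastp, STAR and HTSeq on GRCh38. Of tool versions, gene annotation and strand setting, none is given in the sources used here. The authors' deposited tables give whole read counts for each gene symbol, 1 library per table and unnormalized, and groups were taken from the sample titles. Counts were scaled with TMM factors of edgeR 4.0.16 (R 4.3.3), 1.03 for the control and 0.972 for GLE, and ratios carry exact Clopper-Pearson 95% counting intervals (SciPy 1.17.1). Reads have no molecular identifiers, so intervals and floors cover counting error only, and the true error can be larger. Log2 ratios had 0.5 added to each count, and genes needed 30 counts over both libraries. Ratios of ratios are conditional odds ratios with exact intervals, for 16 pairs chosen after their values were seen. The computation was tested on simulated data.

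All 44 members matched RefSeq (GRCh38.p14), which gave positions and promoter windows of 250 bases before each start. GENCODE 29 gave strand, exons, neighbours and the transcript GC content. Compartments are textbook assignments. Counts, ratio and interval are given for each measured member at least 1.5-fold higher or lower and for the 10 with most counts, and more briefly for the rest. Members, gene lists and settings were chosen with earlier results of these data known. Protein sequences were not used here, and 1 gene of the list of other J proteins is not reported here. Alternatives were total counts, DESeq2 1.42.0 size factors, upper-quartile factors, centring on the median of well-counted genes, library totals without mitochondrial genes, minimums of 10, 100 and none, another added count, thinning of the control, and the whole interval beyond 2-fold. Removal of a GC trend (lowess span 0.3, statsmodels 0.14.6) was added after seeing the data.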

Additional observations from a re-analysis of the deposited data

How the results depend on the processing

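No paired analysis was possible because each group holds 1 library, and for the same reason none could be left out. The minimums cannot change a single member's ratio. Of the 239 values of single members under the other settings, all stayed within that member's own counting interval, and no member whose interval excluded 1 changed direction under the settings run. Staying within the interval was largely set in advance. Most of these settings shift all members by a small shared factor, and the median half-width of the members' intervals was 0.29 in log2. DNAJB1 ranged from 7.51 to 8.36, DNAJB9 from 7.88 to 8.50, DNAJB4 from 4.46 to 5.40 and DNAJC30 from 0.166 to 0.225. The count of members at least 2-fold higher, 6, became 4 with total counts (8.26% of all genes), where DNAJB2 and DNAJC2 fell short. With library totals without mitochondrial genes it was 5 (8.87% of all genes), since DNAJB2 fell short. A minimum of 10 counts gave 8 (12.5% of all genes), as DNAJC6 and DNAJC27 joined. A minimum of 100 gave 5 (7.31% of all genes), which leaves DNAJC24 out. No minimum gave 11 (22.6% of all genes), as DNAJB5, DNAJC6, DNAJC12, DNAJC18 and DNAJC27 joined. The count was 3 (DNAJB1, DNAJB4 and DNAJB9) when the whole interval had to lie beyond 2-fold, against 3.82% of all measured genes. The count at least 2-fold lower, 1, became 2 with total counts (12.2% of all genes) and with the control thinned to the GLE depth (9.54% of all genes), as DNAJB12 joined. It was 2 with no minimum (21.4% of all genes), as DNAJC28 joined. With a minimum of 100 counts, which leaves DNAJC30 out, it was 0 (6.91% of all genes). The vesicle median log2 ratio of 0.13 became 0.85 with a minimum of 10 counts and with none, since DNAJC6 then entered. Depth limited DNAJC17, DNAJC4 and the members under 30 counts.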

Other observations

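DNAJC3-DT, the divergent transcript beside DNAJC3 and no member of the family, had 35 counts in the control and 81 in GLE, a ratio of 3.78 (2.51 to 5.79), beside 1.90 for DNAJC3 itself. DNAJC27-AS1, the antisense gene of DNAJC27, had 0 and 3 counts. The other 8 symbols left out of the family had 0 counts in both libraries.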
